A study of Mus musculus with 8 samples.

Results

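The epithelium of the mouse extrahepatic bile duct was compared with the epithelium of the pancreatic duct, gene by gene and by groups of genes that mark cell kinds. A gene entered the comparison if its deposited FPKM value, which divides its reads by exon length and sequencing depth, was at least 1 in either epithelium. This held for 15092 of the 31228 genes in the table. Each epithelium is 1 library of polyadenylated RNA from C57BL/6 mice, made from ducts that were digested with collagenase and put straight into Trizol. No treatment or genetic change is named for either. The series also holds 3 organoid cultures from each duct, grown in Matrigel from the same kinds of duct, which serve here as libraries of duct cells grown away from their surrounding tissue. The labels do not give the number, age or sex of the mice behind each epithelium. With 1 library per epithelium no difference has a replicate check and no p-value is given.

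The extrahepatic bile duct carries bile from the liver to the duodenum, and the pancreatic duct carries digestive enzymes and bicarbonate from the acini of the pancreas to the same outlet. Both are lined by a simple epithelium that expresses keratins of the Krt7, Krt8, Krt18 and Krt19 kind. The wall of the extrahepatic bile duct holds mucous peribiliary glands, and the ducts lie against acinar tissue, liver, gut, vessels and lymphoid cells. RNA of those tissues can enter a library when a duct is dissected, so genes known to mark them are given apart from those of the duct itself.

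All levels below are scaled FPKM, which are the deposited values after scaling of the 8 libraries to each other, with the bile duct value first. A log2 difference is log2(scaled FPKM + 1) of bile duct minus that of pancreatic duct, and a gene is counted as apart when this difference is at least 1 in size, a 2-fold difference. Adding 1 understates the difference of weakly expressed genes. The deposited values imply 12876470 reads for the bile duct and 15455993 for the pancreatic duct, and between 15405377 and 20828217 for the organoids. An interval in brackets is the exact 95% counting interval of a ratio of levels. It covers counting error only and not the spread between animals or dissections. Ratios without an interval belong to genes whose reads could not be recovered as whole numbers in both libraries.

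The labels were checked against marker genes before the comparison. Both libraries held duct keratins, but at lower levels than organoids. A list of 25 duct epithelium genes made up 0.795% of all FPKM in the bile duct library and 0.218% in the pancreatic duct library, against 2.15% to 3.78% in the organoids. Genes of acinar cells, the enzyme-making cells of the pancreas, made up 7.62% and 16.7%, against at most 0.00313% in the organoids. Both epithelial libraries therefore carry more acinar than duct list RNA. In bulk samples, fewer cells of a type and less RNA per cell cannot be told apart. The pseudogene entry H2-Ea-ps, a class II gene that C57BL/6 mice are known not to express because its promoter is deleted, was at 1.04 in the bile duct and 111 in the pancreatic duct. The organoids were at 0 for it, and the list of other class II genes was also low there, at 0.000346% to 0.00129% of FPKM against 0.367% and 0.149% in the epithelia. Whether the strain behind the pancreatic duct library differs from its label was not tested. Some ribosomal protein genes set the bile duct library apart, such as Rps18 at 144 there and 10.5 to 16.7 in the other 7 libraries, and Rpl34 at 109 against 5.64 and 2.99 to 5.89 in the organoids. Of 75 ribosomal protein genes, counted after the data were seen, 7 were at least 2-fold higher in the bile duct library and 0 in the other epithelium. The first count is near the 9.12% of all genes compared that were higher in the bile duct by that much. Those beyond 8-fold had log2 differences of 4.21 (Rpl29), 4.05 (Rpl34), 3.66 (Rps18), 3.45 (Rps2) and 3.32 (Rpl26). Over all 15092 genes, 232 were higher in the bile duct by 8-fold or more. Whether the reads of the libraries were processed alike was not tested.

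Of the 15092 genes, 2074 (13.7%) were at least 2-fold apart. The bile duct was higher for 1377 of them (9.12% of genes) and the pancreatic duct for 697 (4.62%). The remaining 13018 genes (86.3%) lay within 2-fold. Among wider differences the bile duct was higher for 515 genes against 106 at 4-fold or more, 232 against 23 at 8-fold or more, and 37 against 5 at 32-fold or more. The median difference over all genes was -0.04, so the bulk of genes was centred near 0. The genes nearest the limit were Wars (1.00) just inside and Srxn1 (0.998) just outside on the bile duct side, and Tinagl1 and Ptprb on the other (-1 each). This balance depended on the scaling. When the median of the duct epithelium list was set to 0, an alternative chosen after seeing the data, 398 genes were higher in the bile duct and 10275 in the pancreatic duct, with a median over all genes of -1.25. Statements of direction below refer to the scaling over all genes. Counts of list genes below are to be read beside the 9.12% and 4.62% of all genes given above.

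**Figure D1:**
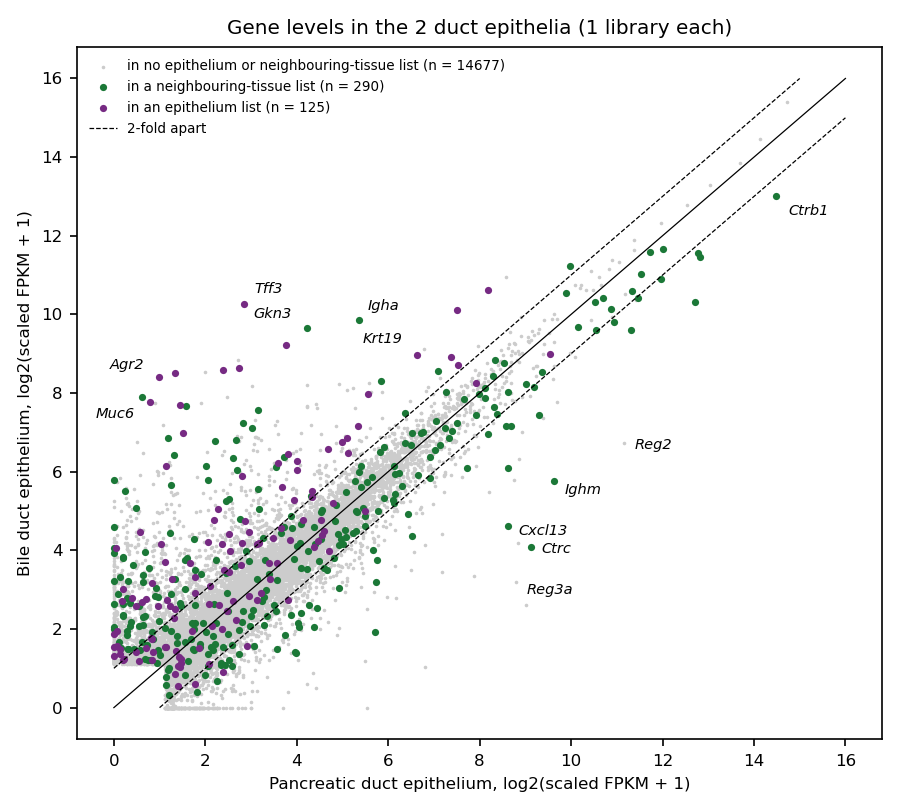
Each point is 1 of the 15092 genes, with log2(scaled FPKM + 1) in the pancreatic duct epithelium across and in the bile duct epithelium up, 1 library each. The solid line marks equal levels and the dashed lines a 2-fold difference. Tff3, Agr2, Muc6, Gkn3 and Igha lie far above the lines, and Reg3a, Ctrc, Cxcl13 and Ighm far below them.

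Keratins and junction genes of the duct epithelium were higher in the bile duct library. Of the 25 genes of the duct epithelium list, 18 were counted as higher in the bile duct and 1 as higher in the pancreatic duct, with a median difference of 1.53. Krt19, a keratin that defines duct cells, stood at 497 against 98.1, a ratio of 5.06 (4.84 to 5.3). Krt7, the other defining keratin, stood at 26 against 6.29. Krt8 was at 1103 against 182 and Krt18, its partner, at 479 against 166. Epcam, an adhesion molecule of epithelia, was at 250 against 46.5, and Spp1, a secreted phosphoprotein of duct cells, at 420 against 184. The pancreatic duct library thus held each of these genes, at lower levels than the bile duct library. Prom1, a membrane protein of the apical surface, was the widest at 73.7 against 11.

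Some duct genes lay within 2-fold or near it. Pkhd1, which encodes the fibrocystin of primary cilia, was at 1.15 in the bile duct and 3.20 in the pancreatic duct, a difference of -0.96. Bicc1, an RNA-binding protein linked to cystic ducts, was at 15.9 against 19.9. Sox9, the transcription factor of duct progenitors, was just past the 2-fold limit at 16.9 against 7.80.

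Genes that most epithelia share moved with the keratins. A list of 20 such genes, added after the data were seen, held 14 that were counted as higher in the bile duct and 0 as higher in the pancreatic duct, with a median difference of 1.55. Their median level was 14.4 in the bile duct, 5.75 in the pancreatic duct and 31.8 to 38.3 in the organoids. Tmprss2, a membrane protease, was widest at 73.3 against 10.3, and Klf5, an epithelial transcription factor, was at 54.1 against 9.50. Genes of epithelia in general thus differed in the same direction as many genes described below, and their part in each of those was not tested. Of the other epithelial lists, those of stem cell and Wnt genes (median 1.15), bile acid genes (1.01), position factors (1.00) and ion and fluid secretion (0.97) had medians below the 1.53 of the duct list, as did the glutathione list (1.31). For bile acid genes this order turned with a pseudocount of 0.1 (2.42 against 1.60 for the duct list) and with a minimum of 10 FPKM (2.14 against 1.75). The median of the position factors was 0.25 with that minimum and 0.30 with none.

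**Figure D2:**
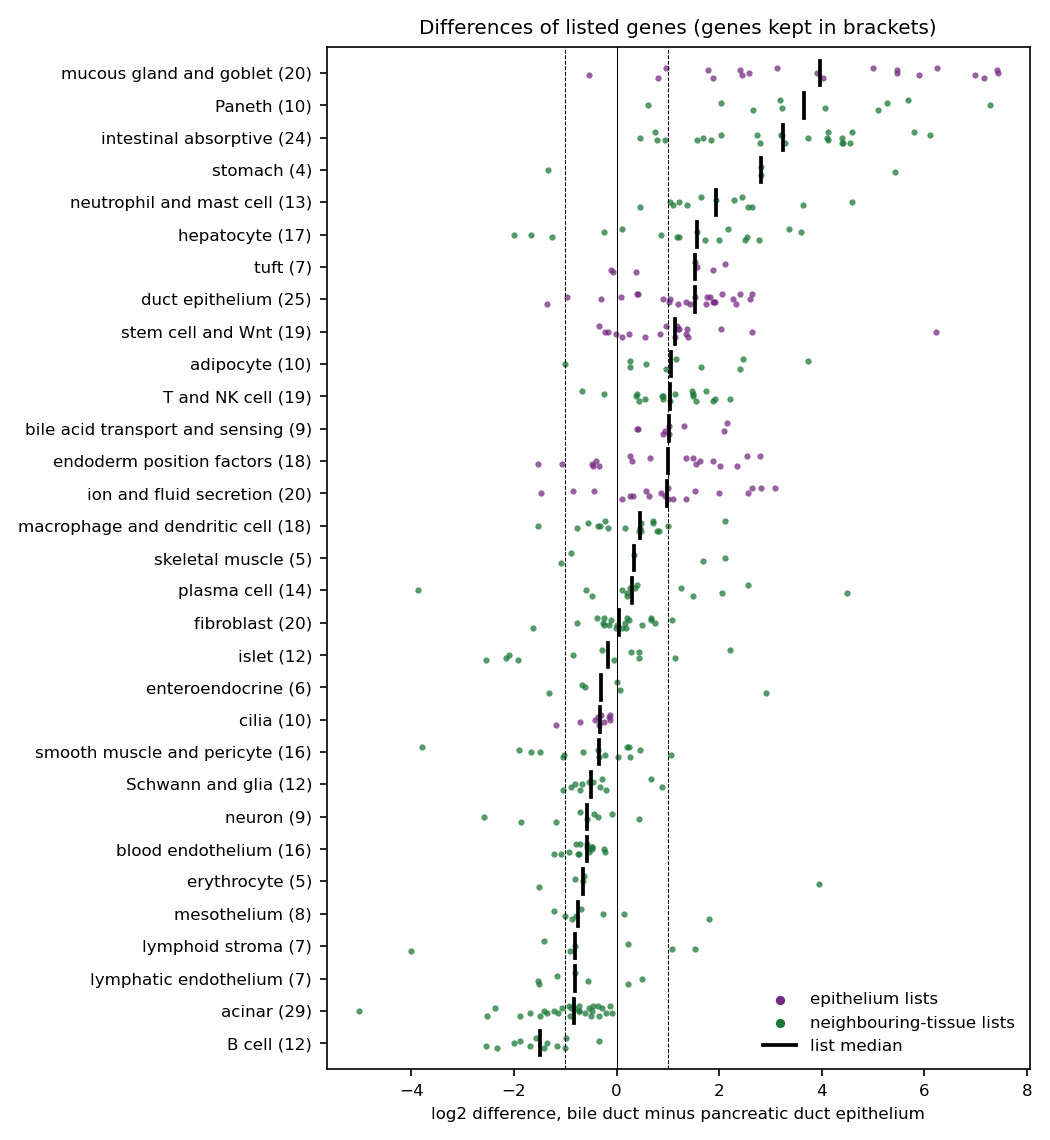
Each point is a gene of a list, placed by its log2 difference of bile duct minus pancreatic duct epithelium. Black bars are list medians, dashed lines a 2-fold difference, and the number of genes kept stands in brackets. Mucous, Paneth and intestinal lists have medians between 3.25 and 3.96, and the B cell list has the lowest median at -1.49.

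On the log2(scaled FPKM + 1) scale, the widest list median belonged to genes of mucus and mucous glands. With a pseudocount of 0.1 the Paneth list (6.06) lay above it (5.37). Of the 23 genes of this list 20 were kept, 17 were counted as higher in the bile duct and 0 as higher in the pancreatic duct. The median of 3.96 lay above that of the duct list, and 17 of the 20 genes exceeded the duct list median. Muc6, a gel-forming mucin of deep mucous glands, was at 218 against 0.720, a ratio of 303 (246 to 378). Its gene lies at chr7:141633456-141655319 in GRCm38. Clca1, a secreted protein of goblet cell mucus, was at 362 against 1.52, and Fcgbp, a mucus component that binds antibody Fc parts, at 205 against 1.72. Tff2, a trefoil peptide of gastric and duodenal glands, was at 1578 against 287. In both libraries Tff2 was thus an abundant transcript, unlike Muc6.

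The membrane mucins were also apart. Muc13 was at 125 against 1.87, Muc3 at 69.8 against 1.21 and Muc4 at 15.8 against 0.0386. Muc1, in contrast, was at 143 against 39.8, close to the median of the duct list. Muc2, the main mucin of intestinal goblet cells, was at only 5.92 against 0.308. Spdef, a transcription factor of secretory cells, was at 12 against 1.18, and Creb3l4 at 16.9 against 1.04. Pigr, the receptor that carries dimeric antibody across epithelia, was at 395 against 5.70. The list's defining trefoil gene Tff1 was low in both, at 1.87 and 0.634. The exception was Zg16, a lectin of secretory granules that acinar and goblet cells both make, at 513 against 744 (-0.54).

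Most of these mucous genes were much lower in organoids than in the bile duct library. Muc6 lay at 0.0239 to 0.393 in the 6 organoids, Clca1 at 0.0116 to 0.6 and Tff2 at 2.11 to 13.9. Gcnt3, an enzyme that branches mucin sugars, was the reverse, with 21.3 in the bile duct, 0.493 in the pancreatic duct and 30.42 to 80.2 in the organoids. Spink4, at 597 against 12.5, lay at 12.5 to 89.4 in the organoids. Both kinds of mucous gene were thus present, those kept in culture and those near 0 there.

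**Figure D3:**
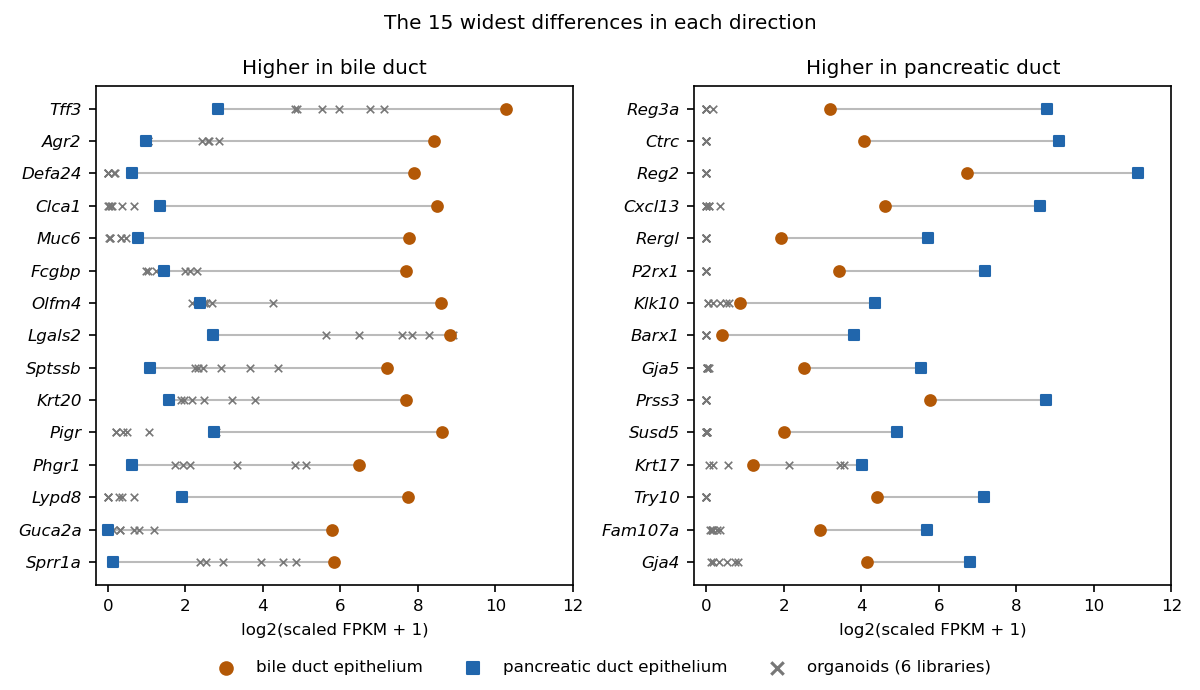
The 15 protein-coding genes furthest apart on either side, on a log2(scaled FPKM + 1) axis. Only genes with at least 10 scaled FPKM on the higher side entered, and symbols of predicted genes or clones were left out. Circles are the bile duct epithelium, squares the pancreatic duct epithelium, and crosses the 6 organoid libraries. Lgals2 reaches up to 481 in an organoid, while Reg2, Ctrc, P2rx1 and Rergl are at 0 in every organoid.

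Most kept markers of gut epithelium were also higher in the bile duct library. Of the 25 genes of the intestinal absorptive list, 24 were kept. The bile duct was counted as higher for 20, against 9.12% of all genes, and the pancreatic duct for 0, against 4.62%. The median was 3.25, and 4.16 with a pseudocount of 0.1 or 4.12 with a minimum of 10 FPKM. Fabp1 and Fabp2, the fatty acid binding proteins that define the list, were at 189 against 7.94 and at 110 against 5.41. Krt20, a keratin of mature gut and gastric surface cells, was at 204 against 1.96. Guca2a, which encodes guanylin, was at 54.5 against 0, or 143-fold higher with a floor of 3 reads set for the pancreatic duct library. The lower 95% counting limit of its ratio was 115. Alpi, intestinal alkaline phosphatase, was at 109 against 3.66. The brush border enzymes Sis and Lct were low even in the bile duct, at 6.03 and 2.87.

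Paneth cells are the antimicrobial cells of small-intestinal crypts. Of the 15 genes of their list 10 were kept, and 9 were counted as higher in the bile duct, with a median of 3.64. Defa24, a defensin, was at 238 against 0.542, Lyz1 at 82.0 against 12.2 and Itln1 at 114 against 1.26. The defensin genes are near-identical copies, so how reads divide among Defa24, Defa30 and Defa17 is uncertain. In the organoids Lyz1 was at 0 and Itln1 at most 0.0441. Mmp7, a protease that Paneth cells and injured ducts make, was at 84.6 against 1.49 and reached 20.1 in an organoid.

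The stomach list had 4 of its 13 genes kept, 3 counted as higher in the bile duct and 1 as higher in the pancreatic duct. Its median of 2.82 fell to 0.50 with no minimum FPKM. Gkn3, a gastrokine of gastric neck mucous cells, was at 798 against 17.7, a ratio of 45.1 (39.2 to 52.2), and at most 0.0513 in organoids. Pgc, pepsinogen C, was at 37.5 against 4.47. Gper1, a membrane estrogen receptor, was the gene on the pancreatic duct side at 1.13 against 4.39. The parietal and surface cell genes Atp4a, Atp4b, Gkn1 and Gkn2 were below 1 deposited FPKM in both epithelia. The acid-secreting cells of the stomach were thus not represented among the genes kept. Whether gut tissue entered the bile duct library, or its gland cells hold these transcripts, cannot be told apart in 1 library.

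Transcription factors that set position along the gut tube differed unevenly. Of 18 kept genes of this list, 9 were counted as higher in the bile duct, against 9.12% of all genes. The pancreatic duct was counted as higher for 2, against 4.62%, and 7 of the 18 exceeded the duct list median. Hnf4a, a factor of liver and gut epithelium, was at 32.3 against 3.83, a ratio of 8.45 (7.39 to 9.7). Cdx2, which sets intestinal identity, was at 5.57 against 0.134, yet the 6 organoids held it at 4.31 to 20.0. Cdx1, its relative, was at 1.94 against 0.0433 and at most 0.0359 in the organoids. The intestinal factors thus differed from each other in culture. Pdx1, a factor of pancreas and duodenum that defines the list, was higher in the bile duct library too, at 11.7 against 2.18. Gata6 was nearly level at 26.4 against 22.0, as was Hes1 at 31.2 against 44.0.

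Sox17 and Prox1 went the other way. Sox17, a factor of the bile duct and gallbladder lineage that endothelium also expresses, was at 5.72 in the bile duct and 13 in the pancreatic duct. Prox1, a factor of liver, pancreas and lymphatic endothelium, was at 4.13 against 13.7. Endothelial genes leaned to the pancreatic duct library as well, with 14 of 16 blood endothelium genes within 2-fold, as given below. The part of endothelium in the Sox17 and Prox1 values was not tested.

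Stem cell and Wnt pathway genes held 10 of 19 kept members higher in the bile duct and 0 higher in the pancreatic duct, and 3 exceeded the duct list median. Olfm4, a secreted glycoprotein of crypt base cells, stood out at 386 against 4.20. Cd44, a hyaluronan receptor, was at 64.6 against 15.1 and Lgr4, an R-spondin receptor, at 17.1 against 5.95. Axin2, a direct target of Wnt signalling, was level at 4.52 against 4.57. Lgr5, the defining crypt stem cell gene, was below 1 deposited FPKM in both.

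Of 20 kept channels and transporters for fluid secretion, 10 were counted as higher in the bile duct, against 9.12% of all genes. Another 9 lay within 2-fold and 1 was counted the other way, against 4.62% of all genes. Of the 20, 5 lay above the duct list median. Car2, carbonic anhydrase, was at 57.9 against 5.94, a ratio of 9.75 (8.38 to 11.4). Kcne3, a potassium channel subunit, was at 86.3 against 12.9, and Cftr, the chloride and bicarbonate channel of the duct list, at 5.79 against 0.634. Slc9a3, the sodium and proton exchanger of absorptive surfaces, was at 7.07 against 0.151. The highest member, the water channel Aqp1, was close at 302 against 243, and endothelium makes it as well. Sctr, the receptor for secretin, the hormone that drives ductal bicarbonate flow, was the exception at 0.887 against 4.21. It was near 0 in every organoid, at most 0.0250.

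Bile acid genes were low in both epithelia. Of 13 genes 9 were kept, 5 of those were counted as higher in the bile duct, and 2 exceeded the duct list median. Slc10a2, the apical bile acid uptake carrier, was at 1.33 against 0.146, and Slc51a, a basolateral export subunit, at 5.47 against 0.521. Abcc3, an export pump, was at 17.4 against 3.16. Nr1h4, the bile acid receptor FXR, was at 10.0 against 4.73. Fabp6, the ileal bile acid binding protein, was at 1.49 in the bile duct and at 0 in the pancreatic duct.

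Tuft cells, the chemosensory cells of ducts and gut, showed a partial difference. Sh2d6 was at 5.04 against 0.392 and Trpm5, a cation channel of taste-like signalling, at 2.83 against 0.0473. Dclk1, the other defining marker, was level at 3.20 against 3.40. Of 10 kept cilia genes, 1 was counted as apart, against 13.7% of all genes. That gene was Foxj1, the regulator of motile cilia, at 0.510 against 2.42. Rfx3, the other defining gene, was at 1.36 against 1.78.

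Enzymes that handle glutathione and foreign compounds were higher in the bile duct. Of 27 kept genes 15 were counted that way and 0 the other way, with a median of 1.31. Gpx2, a glutathione peroxidase of gut epithelium, was at 62.5 against 0.964 and at 64.2 to 292 in organoids. Gsta1, a glutathione transferase that defines the list, was at 37.3 against 0, or 157-fold higher with the floor of 3 reads. Cyp2c65, a cytochrome P450 of the gut, was at 31.9 against 0.314 and at most 0.755 in organoids. Gstm1 and Gpx1, the most abundant members, were within 2-fold, at 250 against 180 and 269 against 168. Nqo1, a target of the oxidative stress factor Nrf2, leaned to the pancreatic duct at 13.2 against 19.4.

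Cell cycle genes were low in both libraries compared with the organoids. Of 29 kept genes, 5 were counted as higher in the bile duct, against 9.12% of all genes, and 0 as higher in the pancreatic duct, with a median of 0.69. Mki67, a marker of cycling cells, was at 6.89 against 3.56, and Top2a at 6.47 against 3.10. Plk1, a mitotic kinase, was widest at 14.2 against 1.03. The replication factors Mcm5 (6.12 against 6.07) and Mcm6 (12.9 against 12.4) were level. In the organoids Mki67 lay at 17.9 to 62.7.

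The protein-coding genes furthest on the pancreatic duct side were of other kinds. Reg3a and Reg2 belong to the Reg family, small secreted lectin-like proteins made by acinar and gut cells under stress. Reg3a was at 8.22 in the bile duct and 442 in the pancreatic duct, a ratio of 53.7 (42.8 to 68.3) in favour of the pancreatic duct. Reg2 was at 105 against 2275, a ratio of 21.6 (20.4 to 23.0). Reg3d followed at 23.1 against 86.3. Reg3g, an antibacterial lectin of gut epithelium, went the other way at 199 against 17.7. So did Reg4 at 6.73 against 0, or 30.3-fold higher with the floor. Reg1, the defining gene, was at 1475 against 2313. The family therefore split into members higher in each duct, and the copies are similar enough that reads may be shared between them.

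Among the other genes higher in the pancreatic duct, Cxcl13, the chemokine that draws B cells into follicles, was at 23.4 against 391. P2rx1, an ATP-gated channel of platelets, smooth muscle and acinar cells, was at 9.86 against 145 and at 0 in the organoids. Barx1, a homeobox factor of stomach mesenchyme, was at 0.319 against 13, and Klk10, a kallikrein protease, at 0.845 against 19.6. Krt17, a keratin of basal and reactive epithelium, was at 1.32 against 15.2.

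The acinar list took the largest share of FPKM after the mitochondrial genome among the lists in both libraries. Of its 30 genes 29 were kept, 29 lay lower in the bile duct, and 11 were counted as higher in the pancreatic duct, with a median of -0.82. Ctrb1, chymotrypsinogen, was the most abundant gene outside the mitochondrial genome in both, at 8211 against 23010. Prss2, a trypsinogen, was at 2824 against 7238. The enzymes were not reduced in a common ratio. Cela1, an elastase, was at 3082 against 3370 and Pnlip, pancreatic lipase, at 3248 against 4120. Ctrc, chymotrypsin C, was at 15.9 against 552, a ratio of 34.7 (30.6 to 39.4), and its locus overlaps that of Cela2a in the annotation. Cela2a itself was at 2090 against 2968. Trypsinogens are near-identical copies, so the division of reads between Try4, Try5, Prss2, Prss3 and Try10 is uncertain.

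The spread within the acinar list was from 1.09-fold to 34.7-fold lower in the bile duct. A single ratio of acinar RNA between the libraries does not describe it. In the organoids Cela1 was the highest acinar gene at 1.52 to 7.39, and Ctrb1 was at most 0.172. As an example of shared promoter letters, the 250 bases before the start are printed for Cela1, whose levels were close, and Prss2, whose levels differed, from RefSeq tables in build GRCm38.p6. Cela1 is chr15:100687921-100688170 on the minus strand and Prss2 chr6:41521526-41521775 on the plus strand. Capitals mark CACCTG, the E-box, and TTTCCC, the TC-box, that the acinar factor complex PTF1 is known to bind, and AAGGTCA, the site of NR5A receptors, all searched on both strands.
Cela1: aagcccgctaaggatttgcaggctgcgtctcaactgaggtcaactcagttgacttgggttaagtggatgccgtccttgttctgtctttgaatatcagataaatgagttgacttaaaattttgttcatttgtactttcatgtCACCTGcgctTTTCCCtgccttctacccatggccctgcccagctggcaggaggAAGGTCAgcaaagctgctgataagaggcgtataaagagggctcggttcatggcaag
Prss2: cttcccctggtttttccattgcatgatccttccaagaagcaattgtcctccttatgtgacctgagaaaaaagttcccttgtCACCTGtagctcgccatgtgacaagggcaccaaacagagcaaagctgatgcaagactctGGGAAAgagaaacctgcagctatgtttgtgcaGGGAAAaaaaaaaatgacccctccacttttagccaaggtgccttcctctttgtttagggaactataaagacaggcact
The E-box CACCTG was found in 14 of the 25 acinar list promoters that the table held (56%), against 17.1% of all 27025 promoters, 26.9% of those of genes higher in the bile duct and 19.1% of those of genes higher in the pancreatic duct. In Cela1 the E-box begins 109 bases before the start and the TC-box 99 bases before it. The TC-box TTTCCC was in 24% of acinar list promoters and 21.9% of all, and the NR5A site AAGGTCA in 12% and 4.05%. A match describes these letters only.

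**Figure D4:**
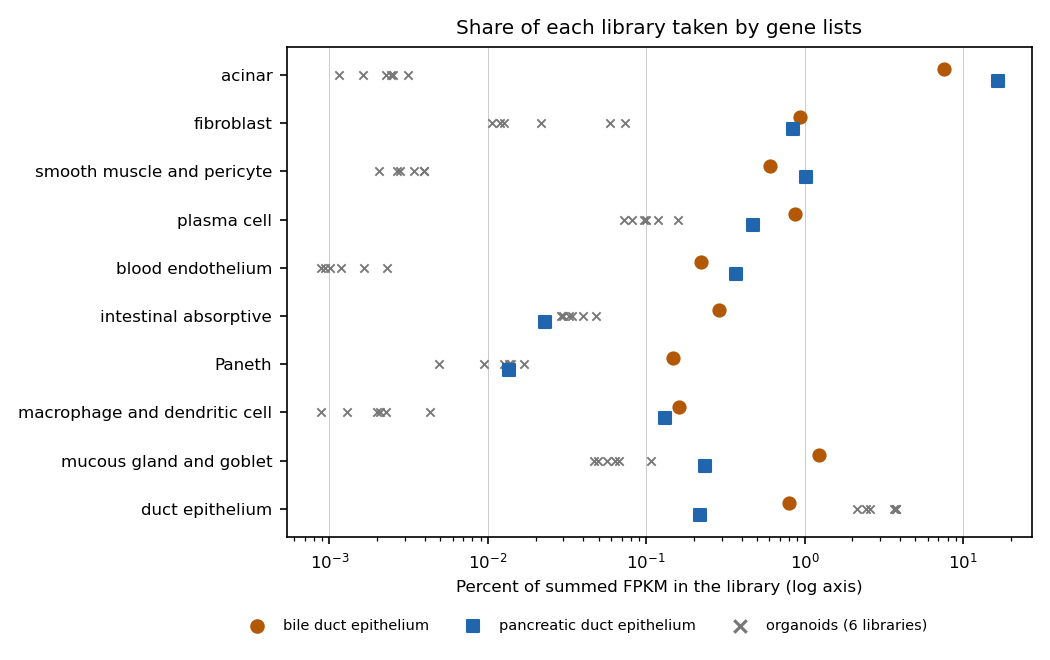
The share of summed FPKM taken by 10 gene lists in each library, on a log axis. Circles are the bile duct epithelium, squares the pancreatic duct epithelium and crosses the 6 organoids. The acinar list takes 7.62% and 16.7% in the epithelia and at most 0.00313% in the organoids, while the duct list is highest in the organoids.

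Other tissues around the ducts left smaller signals. Of 12 kept islet genes, 4 were counted as higher in the pancreatic duct, against 4.62% of all genes. Another 2 were counted as higher in the bile duct, against 9.12% of all genes, and 6 as neither, with a median of -0.17. The 4 were hormones. Ins1 and Ins2, the insulin genes that define the list, were at 8.08 against 52.2 and at 19.5 against 90.8. Gcg, glucagon, was at 1.79 against 10.9 and Iapp, amylin, at 2.57 against 12.4. Sst and Ppy, the hormones of delta and PP cells, did not follow, at 34.4 against 28.1 and 31.1 against 38.3. The ratio of hormones to each other thus differed between the libraries. The 2 on the bile duct side were Chgb, a granin of secretory granules, at 12.9 against 2.02, and Ttr, transthyretin, which liver also makes, at 180 against 81.2.

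Liver genes were low in both and mostly higher in the bile duct, with 11 of 17 kept genes counted that way and 3 the other way. Their list took 0.0414% of FPKM in the bile duct and 0.0161% in the pancreatic duct, and 0.00622% to 0.0798% in the organoids. Alb, albumin, was at 38.3 against 4.75, a ratio of 8.06 (6.77 to 9.65). Cyp2e1, a P450 that liver and fat both express, was at 65.4 against 5.44, and Cps1, the urea cycle enzyme that gut also makes, at 12.9 against 0.150. Serpina1a, the other defining gene, was at 1.12 against 4.09, and Serpina1b was the widest on the pancreatic duct side at 3.14 against 15.5. These serpins are near-identical copies. Of 10 kept fat cell genes, 5 were counted as higher in the bile duct, against 9.12% of all genes. The pancreatic duct was counted as higher for 1, against 4.62%. Adipoq was at 46.0 against 7.84 and Cidec, a lipid droplet protein, at 80.3 against 5.10. Plin4, another lipid droplet protein, was the gene on the pancreatic duct side at 13.1 against 27.3. Fabp4, which endothelium shares, was at 125 against 104.

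Of 20 genes of connective tissue fibroblasts, 18 lay within 2-fold, near the 86.3% of all genes, with a median of 0.06. Col1a1 was at 252 against 254, Col1a2 at 150 against 179 and Dcn at 434 against 368. Gsn, gelsolin, was the highest at 1502 against 944. Fn1, fibronectin, was the widest on the pancreatic duct side at 67.1 against 210.5. The fibroblast list took 0.931% and 0.841% of FPKM in the libraries, more than the duct list in each. Its part in the differences of secreted matrix genes was not tested.

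Vessel genes leaned to the pancreatic duct. The 16 genes of the blood endothelium list were all below the pancreatic duct value, 2 of them by at least 2-fold, against 4.62% of all genes, with a median of -0.58. Pecam1, an endothelial adhesion molecule, was at 124 against 289, and Cdh5, the cadherin of endothelial junctions, at 81.5 against 119. Plvap was the highest at 261 against 392. In a list of 14 arterial genes, 8 were counted as higher in the pancreatic duct and the median was -1.17. This list was added after Gja5 and Gja4, which it holds, had been seen among the 15 widest genes on that side, so its count is only a description. Gja5 and Gja4, connexins of arterial endothelium, were at 4.71 against 45.2 and 16.7 against 111. Hey2, a target of Notch in arteries, was at 3.50 against 24.6. In a list of 8 venous genes, also added later, 1 was counted that way, against 4.62% of all genes, with a median of -0.45.

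Of 16 smooth muscle genes, 6 were counted as higher in the pancreatic duct, against 4.62% of all genes. The bile duct was counted as higher for 1, against 9.12%. Acta2, smooth muscle actin, was at 1373 against 2841 and Myh11, its myosin, at 283 against 581. Rergl, a small GTPase-like protein of vascular smooth muscle, was widest at 2.80 against 51.6. Actg2, Des and Rgs5 were within 2-fold, at 280 against 277, 154 against 131 and 230 against 200. Kcnj8, a potassium channel of pericytes, was the 1 gene on the bile duct side at 19.0 against 8.59. Mmrn1 of lymphatic endothelium was at 29.4 against 86.0, and Lyve1, the defining gene there, at 57.4 against 49.4. Of 9 kept neuron genes, 3 were counted as higher in the pancreatic duct, against 4.62% of all genes. The other 6 lay within 2-fold, and the median was -0.57. Vip, a neuropeptide, was at 1.63 against 14.8. Of 12 Schwann and glia genes 11 lay within 2-fold.

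Lymphoid genes divided by cell kind. B cell genes were lower in the bile duct in 12 of 12 cases, 10 of them by at least 2-fold, with a median of -1.49. Ms4a1, which encodes CD20, was at 1.64 against 14.5. Cd79a, part of the B cell receptor, was the highest at 12.4 against 52.7. T and NK cell genes ran the opposite way, with 10 of 19 kept genes higher in the bile duct and 0 higher in the pancreatic duct. Gzma and Gzmb, the granzymes of cytotoxic cells, were at 32.2 against 8.02 and 12.6 against 1.92. Cd8a was at 3.31 against 0.562. The defining Cd3d and Cd3e, subunits of the T cell receptor complex, were lower, at 2.16 against 0.542 and 1.36 against 0.612.

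Antibody genes differed by class. Igha, the heavy chain of IgA, the antibody of mucosal surfaces, was at 926 against 40.2, a ratio of 23.0 (21.8 to 24.3). Ighm, the heavy chain of IgM, was at 53.2 against 795, a ratio of 14.9 (14.1 to 15.9) in favour of the pancreatic duct. Ighg3 was at 43.3 against 2.83 and Ighg1 at 3.17 against 0. Jchain, which joins IgA and IgM units, was at 378 against 135, and Igkc, the kappa light chain, at 2418 against 1010. Xbp1, a factor of secretory cells, was at 105 against 81.8 and Mzb1, an ER protein of plasma cells, at 17.3 against 15.9. Of the 14 plasma cell list genes, 5 were counted as higher in the bile duct, against 9.12% of all genes. The pancreatic duct was counted as higher for 1, against 4.62%. The list took 0.871% of FPKM in the bile duct and 0.471% in the pancreatic duct.

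The variable gene segments followed a related pattern. Of 169 kept segments, 130 were counted as higher in the bile duct, against 9.12% of all genes. The pancreatic duct was counted as higher for 11, against 4.62%. In the bile duct the most abundant heavy chain segment, Ighv5-16, made up 6.90% of all Ighv FPKM, while in the pancreatic duct Ighv1-69 made up 41.7%. For the kappa segments the values were 8.11% for Igkv6-15 and 40.6% for Igkv10-96. Ighv1-69 was at 5.09 in the bile duct and 513 in the pancreatic duct. A few segments thus carried much of the antibody RNA of the pancreatic duct library. Ighv11-2, a segment known from B-1 cells that bind phosphatidylcholine, was at 9.10 against 233, and Igkv14-126 at 17.2 against 454. These segments were singled out after their values were seen, and related segments can share reads. The effect of sequence differences between mice on the segment counts and shares was not tested.

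**Figure D5:**
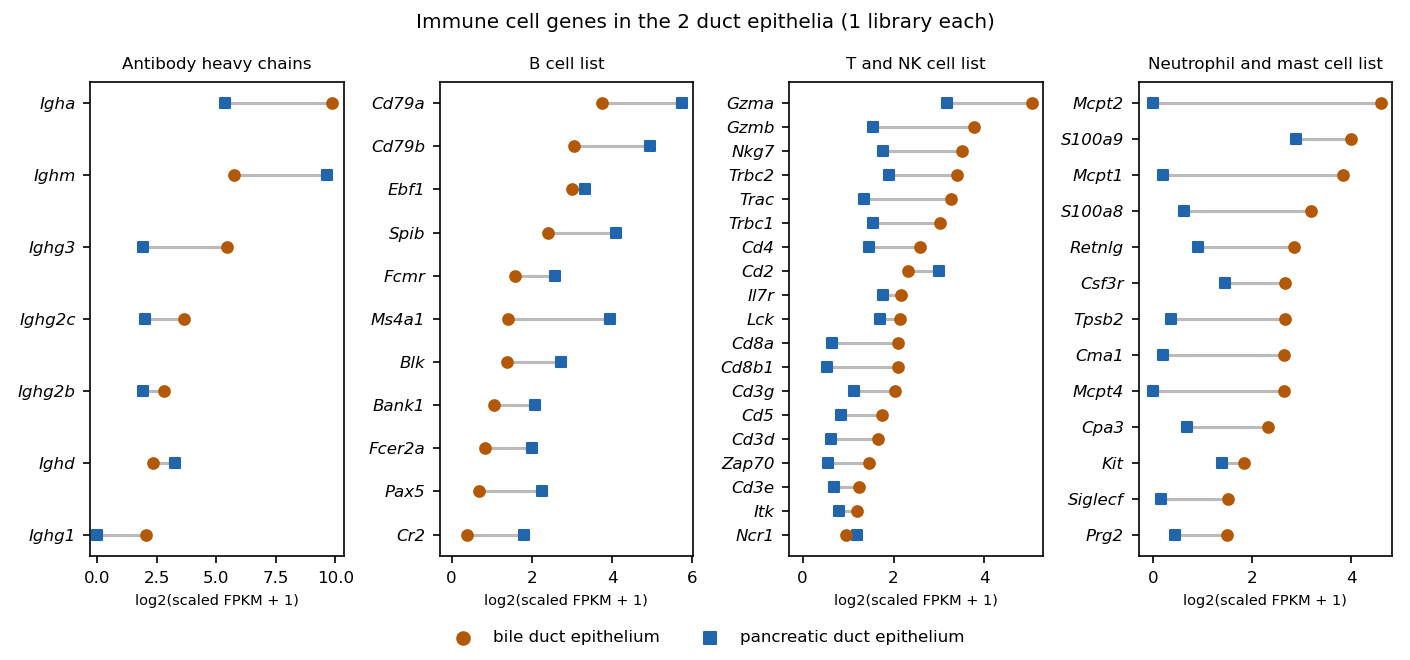
Kept genes of 4 immune gene lists, apart from 1 B cell gene, ordered by the bile duct level, on log2(scaled FPKM + 1) axes. Circles are the bile duct epithelium and squares the pancreatic duct epithelium. Ighm and the B cell genes lie to the right in the pancreatic duct, and Igha, Ighg3, Gzma and Mcpt2 in the bile duct.

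Mast cell and neutrophil genes were low but higher in the bile duct in 13 of 13 kept cases, 12 of them by at least 2-fold. Mcpt2, a mucosal mast cell protease, was at 23.1 against 0, or 108-fold higher with the floor. Mcpt1 was at 13.3 against 0.147, and some organoids held it, at up to 19.3. S100a8 and S100a9, the calcium-binding proteins of neutrophils that define the list, were at 8.10 against 0.546 and 14.9 against 6.38. Of 18 kept macrophage and dendritic cell genes 15 were within 2-fold, near the 86.3% of all genes. Csf1r and Adgre1, which define that list, were at 31.4 against 22.5 and 12.3 against 6.77. Lyz2 was at 346 against 310.5.

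Antigen presentation genes were higher in the bile duct in part. H2-Ab1 and H2-Aa, the chains of the classical class II molecule, were at 278 against 36.6 and 258 against 56.8. Cd74, the invariant chain that pairs with them, was within 2-fold at 752 against 403. H2-DMb2 was at 6.63 against 14.3, and its near copy H2-DMb1 at 37.2 against 9.02. The H2-Ea-ps entry of the same locus differed in the opposite direction, as given above, and the effect of sequence differences between mice on how these reads were counted was not tested. Of 22 kept chemokines, 13 were counted as higher in the bile duct, against 9.12% of all genes. The pancreatic duct was counted as higher for 1, near the 4.62% of all genes. Cxcl5, which draws neutrophils, was at 27.4 against 0.406 and at 64.9 to 542 in organoids. Ccl5 was at 38.1 against 7.26. Ccl6 was the highest at 71.0 against 23.8. Cxcl1 was the gene of this list on the pancreatic duct side, at 8.19 against 21.8. Cxcl13, which stands in the lymphoid stroma list, is a chemokine with a wider difference in that direction, as given above.

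Some lists of cell state held few genes that were apart, where 86.3% of all genes lay within 2-fold. None of the 21 kept genes of ER protein folding was 2-fold apart, and Hspa5, the main ER chaperone, was at 238 against 269. Of 25 interferon-stimulated genes 24 lay within 2-fold, with Isg15 at 31.2 against 44.9. Immediate early genes, which cells are known to switch on quickly after a stimulus, were high in both, with Fos at 927 against 1375 and Jun at 348 against 359. Of 25 such genes 21 were within 2-fold, near the share of all genes. Nr4a1 was widest on the pancreatic duct side at 97.4 against 249. The mitochondrial genome took 23.4% and 17.7% of FPKM, and none of its 13 genes was 2-fold apart.

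The organoids give a separate view of which of these genes duct cells keep in culture. Of the 1377 genes higher in the bile duct, 701 (50.9%) had a mean of at least 1 scaled FPKM in either organoid group. Of the 697 higher in the pancreatic duct, 252 (36.2%) did, against 76.4% of all 15092 genes. Of the former 6.39% stood in a neighbouring-tissue list, and of the latter 7.75%, against 1.92% of all genes. Antibody variable segments stand in none of these lists. They made up 9.44% of the former and 1.58% of the latter, against 1.12% of all genes, so the list shares do not rank the 2 sides. The organoid share of the differing genes was thus below that of all genes in both directions. Protein-coding genes made up 72.5% and 59.8% of the differing genes, against 86.5% of all.

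Genes outside the neighbouring-tissue lists that the organoids of the same duct also express are given next. The mucous gland and goblet list is not among those lists, so its genes could enter. A mean of at least 1 in organoids does not show which cells the RNA of the epithelial library came from. On the bile duct side, Tff3, a trefoil peptide of goblet cells, was at 1231 against 6.14, and the 3 bile duct organoids held 81.8 ± 50.5 (SD, n = 3). Lgals2, a galectin of the gut lining, was at 457 against 5.52 and 196 ± 111 in those organoids (SD, n = 3). The pancreatic duct organoids held these genes as well, Tff3 at 54.6 ± 46.1 (SD, n = 3) and Lgals2 at 252 ± 217 (SD, n = 3). For both genes the difference between the organoid groups was smaller than the spread within them. Sptssb, a subunit of sphingolipid synthesis, was at 146 against 1.12, and Phgr1, a small protein of gut epithelium, at 87.6 against 0.554. In the 6 organoids Sptssb lay at 3.77 to 20.1 and Phgr1 at 2.32 to 33.7. Agr2, a disulfide isomerase of mucin-making cells, was at 339 against 0.997. The bile duct organoids held it at 5.43 ± 0.711 (SD, n = 3) and the pancreatic duct organoids at 2.18 ± 1.94 (SD, n = 3). Sprr1a, a cornified envelope protein, was at 56.0 against 0.0939. Its organoid levels were 11.2 ± 9.37 (SD, n = 3) for the bile duct and 15.6 ± 11.9 (SD, n = 3) for the pancreatic duct.

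On the pancreatic duct side such genes were closer. After Krt17 came Ifi202b, an interferon-inducible DNA sensor, at 4.63 against 23.3 and 18.7 to 46.7 in the organoids. Sorbs2, a cytoskeletal adaptor, was at 5.68 against 27.4 and 10.4 to 15.9 there. Chac1, a glutathione-degrading enzyme of the stress response, was at 2.67 against 14.4, and Inhba, an activin subunit, at 3.77 against 15.5. Col18a1, a basement membrane collagen, was at 32.2 against 103 and 23.0 to 93.7 in the organoids. Camkk1 (4.86 against 18.3) and Wtip (13 against 40.2) had differences of -1.72 and -1.56. Krt17 was the widest of the genes in this group, with a ratio of 11.5 (7.53 to 18.4).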

How the data were processed

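RNA of 8 mouse samples was sequenced: 1 bile duct epithelium, 1 pancreatic duct epithelium and 3 organoid cultures of each, grouped by the source in the labels. Per the labels' protocols, libraries were prepared by the NEBNext Ultra method after poly-T selection. The submitters' processing notes name Bowtie2 2.2.3, HISAT2 2.1.0, TopHat2 and HTSeq 0.6.0, and the use of strand is not given in the sources used here. The authors deposited FPKM for 31228 genes in 1 table, a unit read from the values since no header names it. All per-sample columns were used, and 0 were left aside. Multiplied by the merged exon length in GENCODE M21, the deposited FPKM gave whole reads within 0.05 of a read in both epithelia for 12949 of the 15092 genes kept (85.8%), a level of 0 counted as whole. Coordinates are those of the table and match build GRCm38 for 28577 entries.

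Libraries were scaled by a trimmed mean of log ratios (30% of log ratios and 5% of mean levels trimmed on each side, no precision weights) over genes with at least 1 FPKM in any library. The divisors were 0.870 for the bile duct and 0.854 for the pancreatic duct. Genes with at least 1 deposited FPKM in either epithelium were kept, and log2(scaled FPKM + 1) was compared. No test was run, since each epithelium is 1 library. Ratios carry exact conditional binomial intervals on the reads. For a level of 0 the fold was taken with 3 reads in its place, which leaves out the counting error of the other library. Shares are sums of deposited FPKM. The calculation was tested on simulated data for this comparison with counting noise alone: of 14147 genes, 200 of 200 changed genes were counted as apart, and so were 135 unchanged ones. The planted changes were 4-fold or 8-fold and lay only in genes well above 1 FPKM in the pancreatic duct. Detection of changes near 2-fold or in weaker genes was thus not tested.

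The comparison, its 42 gene lists and the 4 added lists were chosen with earlier results of these data known. Genes named are the 15 widest protein-coding genes per direction with at least 10 scaled FPKM on the higher side, the 10 widest per direction outside neighbouring-tissue lists with an organoid mean of at least 1 on that side, the 5 most abundant of each epithelium, and, for each list, up to 4 highest genes, the widest in each direction and the first 2 of the list. Symbols of predicted genes or clones, such as those ending in Rik, were left out of both groups of widest genes. Other genes named were chosen after their values were seen. Some genes that met the rule are not reported here. Python 3.11.15 with numpy 2.4.6, pandas 2.3.3, scipy 1.17.1 and matplotlib 3.10.9 was used.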

Additional observations from a re-analysis of the deposited data

How the results depend on the processing

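No paired analysis was possible because each of the compared epithelia is 1 library. The count of 2074 genes at least 2-fold apart was between 1415 and 2882 with deposited FPKM, scaling from the epithelia only, scaling without acinar and mitochondrial genes, a pseudocount of 0.1, no minimum, protein-coding genes only, neighbouring-tissue lists left out, or a counting interval wholly beyond 2-fold (1036 higher in the bile duct, 388 in the pancreatic duct). With a minimum of 10 FPKM it was 840, and 486 in place of 953 of the genes apart were present in organoids, since fewer genes were kept. With scaling to the duct epithelium list, chosen after seeing the data, it was 10673, of which 3.73% were higher in the bile duct in place of 66.4%. Of 46 gene lists, 18 had a median at least 2-fold from 0, and 11 with no minimum. The tuft list median changed from 1.54 to -0.11 with a minimum of 10 FPKM, which left Ptgs1 alone. Of 160 recomputed differences of 40 named genes, 0 reversed and 12 moved by over 1.5-fold, all with the pseudocount of 0.1. Of 320 recomputed list medians 26 moved by over 1.5-fold. Depth limits genes with few reads: 1 read in 1 kb of exon is worth 0.0777 FPKM in the bile duct and 0.0647 in the pancreatic duct, and a level of 0 allows up to 3 reads.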

Other observations

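Hox genes, which mark position along the body axis in connective tissue, differed by at least 2-fold in 2 of 20 kept genes. The other 18 (near the 86.3% of all genes within 2-fold) had values on both sides, and the list median was -0.29. Hoxa5 was at 10.3 in the bile duct and 12.7 in the pancreatic duct, Hoxb4 at 6.71 against 9.38, and Hoxd9 at 1.71 against 4.75. Hoxc6 was the 1 gene counted as higher in the bile duct, at 1.59 against 0.252.

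Genes of glycolysis and oxygen sensing leaned to the bile duct, with 4 of 21 genes counted that way, against 9.12% of all genes, and 0 the other way. Car9, a carbonic anhydrase of the hypoxia response, was at 18.9 against 5.19, and Egln3, an oxygen-sensing hydroxylase, at 26 against 7.82. Vegfa was level at 27.1 against 28.8, and Adm was at 12.1 against 21.9.

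Some genes set 1 library apart from the other 7. Rps18 was at 144 in the bile duct epithelium and between 10.5 and 16.7 elsewhere. Rpl29 was at 157 there and 7.53 in the other epithelium, with organoids from 5.11 to 11.8. The pseudogene Gm11702 was at 1.29 there and 27.0 to 44.6 elsewhere, and Rps26-ps1 at 43.9 against 296. In the pancreatic duct epithelium, Gsto1, a glutathione transferase, was at 10.9 against 155 in the bile duct epithelium and 157 to 279 in the organoids. Misp, a mitotic spindle protein, was at 3.80 against 32.2. Rps2 was at 201 against 17.6 and Rpl26 at 300.4 against 29.2, but organoids reached 1184 and 127 for them. Ribosomal protein genes have many processed copies, so their reads can be assigned in more than 1 way. Whether the libraries were processed alike was not tested. Xist was at 42.3 and 64.1 in the epithelia, and the Y-linked Ddx3y was at 0 in both.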
